A study of Mus musculus with 8 samples.

Results

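Tinagl1, Ncoa4-ps and Gm11971 were read at 10 CPM or more in every Treg library of mice after high-altitude de-acclimatization (HADA) and at 1 CPM or less in every control library. They were chosen by these values alone. CPM is the count of a gene divided by the total of its library, times 1e6. Of 56980 genes in the table, 5792 were at 10 CPM or more in all 4 HADA libraries and 30005 were at 1 CPM or less in all 4 control libraries. The 2 conditions together left 4 genes. Cox7a1, which encodes a subunit of cytochrome c oxidase, was left out by its name together with the other Cox genes, the odorant and vomeronasal receptor genes and the Trav and Trbv segments, so that 3 genes remained. With the groups exchanged, the same rule found 0 genes. Since the HADA and control levels chose these genes, the difference between the groups is a description, and calls of the members by a fit to the same contrast support nothing further.

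The libraries were made from Tregs sorted by flow cytometry from the blood of male C57BL/6j mice bought at an age of 8 weeks. The study's methods define Tregs as CD4+CD25+ cells for the suppression assay, and for sequencing they name flow cytometry without the markers. HADA mice lived for 28 days in a chamber that simulated an altitude of 6000 m and then returned to normoxia, while control mice were kept in normoxia throughout. The day after the return on which Tregs were sorted for sequencing is not given in the sources used here. Neither group carried a transgene by the labels or the methods, and nothing says whether each library came from 1 animal or from pooled animals, so that p-values measure the spread between libraries.

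The HADA libraries held 28240337, 22929193, 25230994 and 26590026 counts in the order of their replicate numbers. The control libraries held 1477431, 14452433, 22584062 and 21587245 counts. Control replicate 1 stood apart by its depth, and 1 count in it was worth 0.677 CPM, so that a gene with 2 counts there already missed the rule. In that library the summed level of 7 erythroid genes was 30844 CPM, against 2271 to 5833 CPM in the other control libraries. Control replicate 2 differed in other ways. Its T cell markers summed to 219 CPM, against 1036 to 2530 CPM in the other control libraries. Its scaling factor by edgeR's TMM method was 2.24, against 0.802 to 1.28 in them. Calls of named genes, list counts and rule counts that rest on control replicate 1 are given with and without it.

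The labelled cell type was compared with its markers. Il2ra, which encodes CD25, was at 277.6, 169.6, 192 and 468 CPM in the HADA libraries and at 194, 23.2, 9.17 and 47.5 CPM in the control libraries. Cd4 was at 79.0 to 184 CPM in HADA and at 6.07 to 217 CPM in control. Foxp3 and Tnfrsf18 were listed at 0 in all 8 libraries, and the span of each lies to 100% within spans of other genes. The defining factor of Tregs could therefore not be read from these counts. In a sorted population, fewer cells of a type and less RNA per cell cannot be told apart.

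TINAGL1 is a secreted glycoprotein of the extracellular matrix that resembles the tubulointerstitial nephritis antigen and carries a cathepsin B-like domain without protease activity. The other members are processed pseudogenes, which arise when a messenger RNA is copied back into DNA and inserted elsewhere in the genome, so that they lack the introns of the parent gene and usually its promoter. Their parents are Ncoa4, whose protein carries ferritin to the lysosome so that its iron is released and also acts as a coactivator of nuclear receptors, and Sumo2, which encodes a small ubiquitin-like protein that is attached to other proteins, many of them in the nucleus.

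Tinagl1 (ENSMUSG00000028776) lies at chr4:130058247-130068915 of GRCm39 on the minus strand, and its main transcript has 12 exons, 11 of them coding. It was read at 660.1, 510.4, 289.8 and 232 CPM in HADA replicates 1 to 4, from 18642, 11704, 7313 and 6161 counts. In control replicates 1 to 4 it had 0, 12, 6 and 4 counts, or 0, 0.830, 0.266 and 0.185 CPM. The mean was 423 ± 198 CPM (SD, n = 4) in HADA and 0.320 ± 0.358 CPM (SD, n = 4) in control. Every HADA library lay above every control library, and the HADA libraries themselves spread by a factor of 2.85. With the counts of each group pooled, the HADA level was 1162 times the control level (95% exact interval 768 to 1855, counting error only). Of the 22 control counts 12 were in control replicate 2, and without it the ratio was 1942. In control replicate 1 the count of 0 allows up to 2.03 CPM at a floor of 3 counts, which lies below every HADA library.

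**Figure D1:**
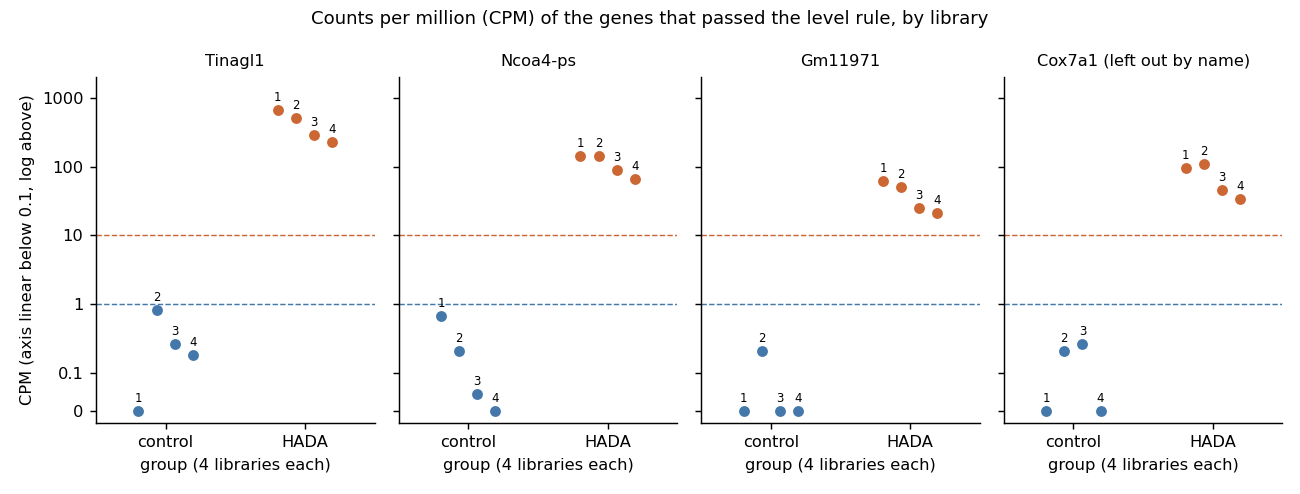
CPM of the 3 members and of Cox7a1 in each control and HADA library, on an axis that is linear below 0.1 and logarithmic above. Each point is 1 library with its replicate number, the dashed lines stand at the 2 thresholds of the rule, 10 and 1 CPM, and Gm11971 was the lowest member in HADA, at 20.99 to 61.2 CPM, and Tinagl1 the highest, at 232 to 660.1 CPM.

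The sequence before Tinagl1 is shown because it was the only member with a promoter in the RefSeq table used here. RefSeq gives 2 windows of 300 bases on GRCm38.p6. The window at chr4:130175073-130175372 (minus strand, 5′ to 3′) is printed with the hypoxia response element core in capitals, which lies on the opposite strand and so reads CACGT here.
Tinagl1 promoter: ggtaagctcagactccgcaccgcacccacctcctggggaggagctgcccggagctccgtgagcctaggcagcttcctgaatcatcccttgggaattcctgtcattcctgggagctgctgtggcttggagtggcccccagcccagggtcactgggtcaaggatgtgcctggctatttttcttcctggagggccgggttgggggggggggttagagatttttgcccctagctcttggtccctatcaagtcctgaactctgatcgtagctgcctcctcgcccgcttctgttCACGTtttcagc
The motifs searched on both strands were TGACNNNGC (antioxidant response element core), ACGTG (hypoxia response element core), TTCNNNGAA (STAT) and GCGTGGGCG (EGR). ACGTG was found 1 time in the printed window and 0 times in the other, and 19.6% of 32851 RefSeq promoters of the same length hold it. The antioxidant core, which 12.4% of promoters hold, STAT (8.30%) and EGR (0.612%) were in neither window. The windows had a GC content of 60% and 60.7% and 9 and 18 CpG dinucleotides, against medians of 52.7% and 7 over all promoters.

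Ncoa4-ps (ENSMUSG00000021908), a transcribed processed pseudogene, lies at chr12:119224713-119226590 of GRCm39 on the plus strand. Its span of 1878 bases runs from the start codon to the stop codon of the parent and joins exons 2 to 10 of Ncoa4 across 8 exon junctions without a gap. It matched the main Ncoa4 transcript at 99.9% of its bases, with 2 substitutions. Counted from base 1 of the pseudogene, with the base of Ncoa4 written before that of the copy, these were A1312G and G1533A, both in exon 8 of the parent. The frame of 625 codons stayed as long as that of the parent. The 41 bases around each substitution are shown because only reads that cross one of them, or that leave the shared stretch, tell the copy from a spliced Ncoa4 transcript. The substituted base is in capitals. The windows around A1312G lie at chr12:119226004-119226044 and chr14:31898473-31898513, and those around G1533A at chr12:119226225-119226265 and chr14:31898694-31898734.
Ncoa4-ps: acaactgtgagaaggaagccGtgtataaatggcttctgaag
Ncoa4: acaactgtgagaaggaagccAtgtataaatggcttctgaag
Ncoa4-ps: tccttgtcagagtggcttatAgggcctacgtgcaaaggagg
Ncoa4: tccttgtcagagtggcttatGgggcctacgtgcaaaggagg

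Ncoa4-ps was read at 144, 145, 89.6 and 65.5 CPM in HADA replicates 1 to 4, from 4059, 3320, 2261 and 1741 counts. The control libraries had 1, 3, 1 and 0 counts, or 0.677, 0.208, 0.0443 and 0 CPM. Its mean was 111 ± 39.8 CPM (SD, n = 4) in HADA and 0.232 ± 0.310 CPM (SD, n = 4) in control, and the groups did not overlap. The pooled level in HADA was 1328 times that in control (95% exact interval 569 to 4092, counting error only), on 5 control counts in all. Without control replicate 2, which held 3 of them, the ratio was 2522, and without control replicate 4 it was 851.

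The parent Ncoa4 (ENSMUSG00000056234, chr14:31881822-31901812) was not near silent in control. It had 50, 134, 104 and 49 counts there, or 33.8, 9.27, 4.61 and 2.27 CPM, and 252.6, 232, 147 and 108 CPM in HADA. The HADA libraries all lay above the control libraries, with a log2 fold change of 4.47 (SE 1.02, adjusted p = 0.0442, edgeR quasi-likelihood test with Benjamini-Hochberg adjustment over all genes). This call was lost without the filter on low counts (adjusted p = 0.0561, edgeR) and when any 1 of control replicates 2, 3 and 4 or of the HADA replicates was left out (adjusted p from 0.0792 to 0.151 with the same edgeR test), and over all alternatives the adjusted p ran from 1.95e-06 to 0.151. Without control replicate 1, where the control level of Ncoa4 was highest, the log2 fold change was 6.12 (adjusted p = 0.00422, edgeR). The test of Ncoa4 is not independent of the choice of Ncoa4-ps, since the 2 share sequence.

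Per 100 counts of Ncoa4, the copy had 56.9, 62.4, 60.8 and 60.6 counts in the HADA libraries and 2, 2.24, 0.962 and 0 counts in the control libraries. The ratio was thus nearly the same in all 4 HADA libraries, while the levels of copy and parent both differed more than 2-fold between them. Pooled over libraries it was 59.8 (95% exact interval 58.4 to 61.2) in HADA and 1.48 (95% exact interval 0.479 to 3.50) in control, and the intervals cover counting error only. The control value was 0.985 without control replicate 2. Of the windows of 150 bases in Ncoa4-ps, 33.0% occurred again elsewhere in the genome, 82.6% occurred in a transcript of another gene, and 17.4% occurred in neither. How reads that map to several places were counted is not given in the sources used here. The division of reads between Ncoa4 and its copy is therefore uncertain, and its part in the level of Ncoa4-ps was not tested.

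**Figure D2:**
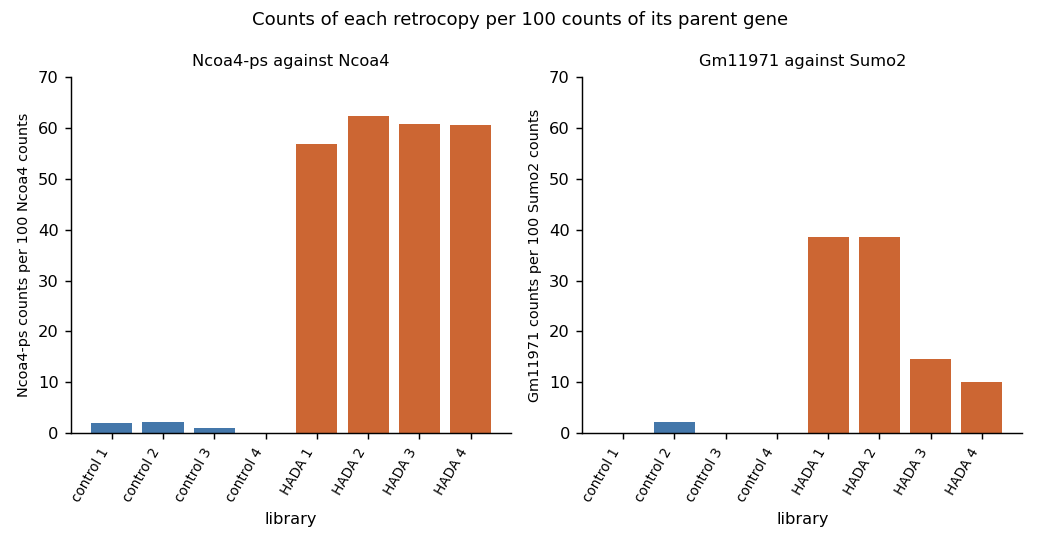
Counts of each processed pseudogene per 100 counts of its parent gene in each library, with Ncoa4-ps on the left, Gm11971 on the right and 1 bar per library, in blue for control and orange for HADA. Ncoa4-ps lay between 56.9 and 62.4 in HADA, and Gm11971 between 10.04 and 38.5.

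Gm11971 (ENSMUSG00000083693), a processed pseudogene, lies at chr11:6403151-6403438 of GRCm39 on the plus strand. Its 288 bases run from the start codon to the stop codon of Sumo2 (chr11:115413928-115427102, minus strand) and join its 4 exons. They are shown whole beside the Sumo2 transcript because the differences, in capitals, are what separates the reads of the copy from those of the parent.
Gm11971: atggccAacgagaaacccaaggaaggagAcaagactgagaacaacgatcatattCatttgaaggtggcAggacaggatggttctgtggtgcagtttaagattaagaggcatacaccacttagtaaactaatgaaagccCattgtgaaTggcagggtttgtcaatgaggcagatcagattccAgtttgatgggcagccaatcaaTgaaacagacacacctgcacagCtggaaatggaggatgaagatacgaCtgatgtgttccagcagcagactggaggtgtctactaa
Sumo2: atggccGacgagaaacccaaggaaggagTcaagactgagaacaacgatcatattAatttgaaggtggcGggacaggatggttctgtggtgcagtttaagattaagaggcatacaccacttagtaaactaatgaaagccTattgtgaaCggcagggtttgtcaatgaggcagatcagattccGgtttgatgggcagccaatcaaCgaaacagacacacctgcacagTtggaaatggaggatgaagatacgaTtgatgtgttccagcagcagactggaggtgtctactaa
The copy matched Sumo2 at 96.5% of its bases with no gap. Its 10 substitutions, counted from base 1 of the copy with the base of Sumo2 first, were G7A, T29A, A55C, G69A, T139C, C148T, G182A, C204T, T226C and T251C. None of them closed the frame, which held 95 codons before the stop in copy and parent. They are spread so that no window of 100 or 150 bases of Gm11971 occurred elsewhere in the genome or in another transcript (0%), whereas 23.4% of windows of 50 bases did.

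Gm11971 was read at 61.2, 50.1, 25.2 and 20.99 CPM in HADA replicates 1 to 4, from 1727, 1148, 637 and 558 counts. Control replicate 2 had 3 counts, or 0.208 CPM, and the other control libraries had 0. The mean was 39.4 ± 19.4 CPM (SD, n = 4) in HADA and 0.0519 ± 0.104 CPM (SD, n = 4) in control, with no overlap between the groups. On the 3 control counts, the pooled ratio of HADA to control was 792, with a 95% exact interval from 271 to 3841 for counting error. Leaving out control replicate 3 gave 494, and leaving out control replicate 4 gave 507. With control replicate 2 left out no control count remained, and HADA was at least 601-fold higher at a floor of 3 counts over the other control libraries. Per kilobase of span Gm11971 had the highest mean of the members in HADA, 137 CPM per kb, against 59.1 for Ncoa4-ps and 39.7 for Tinagl1. The Tinagl1 span of 10669 bases includes introns, and its main transcript has 3110 exonic bases. By exonic length Tinagl1 would lie above Ncoa4-ps and close to Gm11971, which would stay the highest.

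Sumo2 was read at 159, 130.01, 173 and 209 CPM in HADA and at 98.8, 9.34, 36.9 and 48.8 CPM in control. Its log2 fold change was 2.28 (SE 0.91, adjusted p = 0.150, edgeR quasi-likelihood test), which did not pass the threshold. It passed without control replicate 1 (2.94, adjusted p = 0.0460 with the same edgeR test) and with DESeq2 (2.18, adjusted p = 0.0443), and over all alternatives the adjusted p ran from 0.0443 to 0.331. Per 100 counts of Sumo2, Gm11971 had 38.5, 38.5, 14.6 and 10.04 counts in the HADA libraries and 0, 2.22, 0 and 0 in the control libraries. Unlike that of Ncoa4-ps, this ratio was not even across the HADA libraries. It was high in replicates 1 and 2, where Sumo2 was lowest, and low in replicates 3 and 4.

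Sumo2 has many other copies in the mouse genome. Gm12335, which matched Gm11971 at 96.9% of its bases, had 0 counts in all 8 libraries, as did Gm10241 at 96.5%. Smt3h2-ps4 (96.2%) and Smt3h2-ps2 (95.8%) had at most 5 and 2 counts in any library. Smt3h2-ps, at 94.1%, had 94, 37, 54 and 65 counts in HADA and 8, 2, 14 and 3 in control. Gm12755, at 93.0%, had 48, 46, 16 and 8 counts in HADA and 3, 119, 77 and 31 in control. In the HADA libraries Gm11971 thus had more counts than each of these copies, and in control it had no more than Smt3h2-ps4. Sumo3 was listed at 0 everywhere, with 99.2% of its span covered by another gene.

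Within the HADA group the 3 members had a common profile. Relative to its own HADA mean, Tinagl1 was at 1.56, 1.21, 0.685 and 0.548 in replicates 1 to 4. Gm11971 was at 1.55, 1.27, 0.641 and 0.533, and Ncoa4-ps at 1.30, 1.31, 0.808 and 0.590. Replicates 1 and 2 were thus the high libraries and replicates 3 and 4 the low ones for every member. Of the 5792 genes at 10 CPM or more in every HADA library, 25.7% had replicates 1 and 2 both above replicates 3 and 4, so that the profile is not particular to the members. Cox7a1 (1.35, 1.54, 0.644 and 0.465) and Ncoa4 (1.37, 1.25, 0.796 and 0.584) had it as well, and Sumo2 (0.947, 0.775, 1.03 and 1.25) did not.

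**Figure D3:**
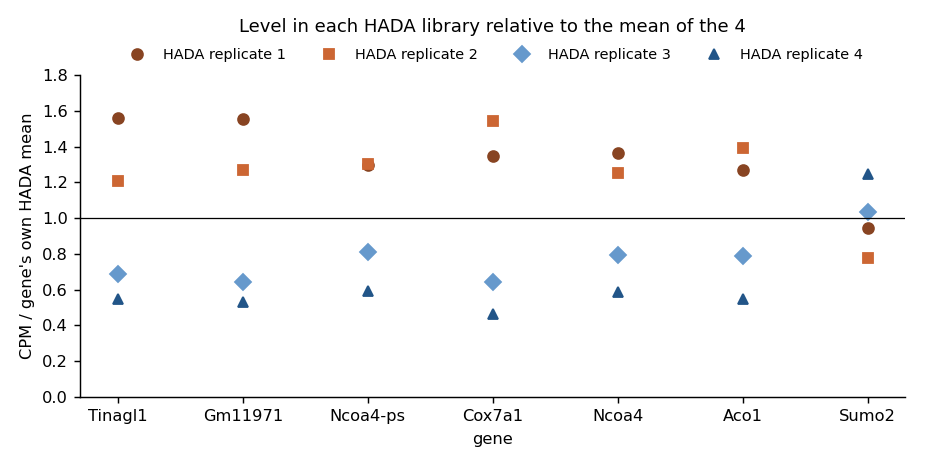
CPM in each HADA library divided by the mean of the gene over the 4 HADA libraries, for the 3 members, Cox7a1, the parent genes Ncoa4 and Sumo2, and Aco1, with 1 symbol per library and a line at the mean of the gene. Replicates 1 and 2 lie above the line and replicates 3 and 4 below it for all genes shown except Sumo2.

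The genes most like each member over the 8 libraries were found among 16056 others by Pearson's r of log2(CPM + 1). The libraries fall into the 2 groups that chose the members, so that a high r mostly repeats the difference between the groups, and it is given as a description. For Tinagl1 the nearest was Aco1 (r = 0.997), which encodes the cytosolic aconitase that also acts as an iron regulatory protein. Aco1 was read at 2167, 2373, 1348 and 936 CPM in HADA and at 8.80, 23.9, 10.2 and 9.17 CPM in control, too high in control for the rule. For Gm11971 the nearest was Cox7a1 (r = 0.998) and then Tinagl1 (r = 0.997). For Ncoa4-ps it was Tmem88 (r = 0.997), which encodes a membrane protein that binds Dishevelled.

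The member nearest to the HADA threshold was Gm11971, whose lowest HADA library had 20.99 CPM, followed by Ncoa4-ps at 65.5 CPM and Tinagl1 at 232 CPM. Just outside were the long noncoding RNA Gm38973 (lowest HADA library 8.73 CPM), Mesp1, a transcription factor of early mesoderm (8.31 CPM), and Gm20873 (6.96 CPM). On the control side Tinagl1 came nearest with 0.830 CPM in control replicate 2, then Ncoa4-ps with 0.677 CPM in control replicate 1 and Gm11971 with 0.208 CPM. Just outside were the homeobox gene Evx2 (1.11 CPM) and the processed pseudogene Gm7695 (1.18 CPM), both through control replicate 2. Lage3, a subunit of a transfer RNA modifying complex, and Tmem88 followed at 1.35 CPM, which is 2 counts in control replicate 1.

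**Figure D4:**
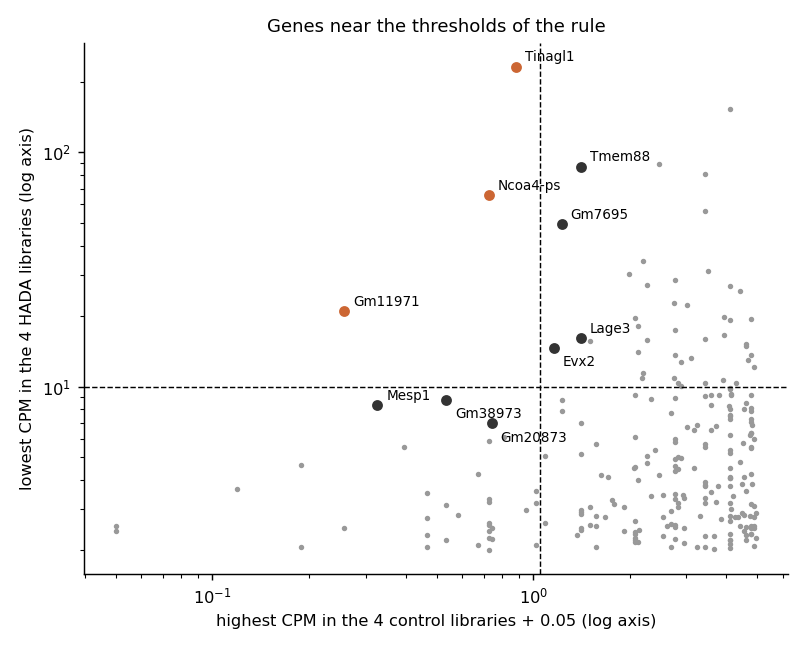
Lowest CPM in the 4 HADA libraries against the highest CPM in the 4 control libraries plus 0.05, both on logarithmic axes, for the 250 genes with at least 2 CPM and at most 5 CPM in these measures. Each point is 1 gene, the dashed lines are the thresholds of the rule, Cox7a1 and the other genes left out by name are not drawn, the 3 members, in orange, lie in the upper left field, and the named black points are the genes just outside.

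In all, 99 genes missed the rule through exactly 1 library, and for 75 of them that library was control replicate 1, where their median level was 23.0 CPM. Of these 75 genes, 59 were at 10 CPM or more in control replicate 1 and were not lost through single counts. Control replicate 2 alone kept out 13 genes, control replicate 4 kept out 1, and the HADA replicates kept out 3, 2, 1 and 4. Without control replicate 1 the rule found 78 genes, 69 of them protein-coding, 3 long noncoding RNAs and 6 processed pseudogenes, with the 3 members among them. Tinagl1 still had the highest mean HADA level of the 78. The next were Ifitm1 at 203 CPM and 4.06 CPM in control replicate 1, Krtcap2 at 169.8 and 117 CPM, and Tnfrsf4, a costimulatory receptor of activated T cells, at 157 and 131 CPM. These genes were named after their values were seen.

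Processed pseudogenes were 2 of the 3 members, and Tinagl1 is protein-coding. Processed pseudogenes were 1.07% (62) of the 5792 genes at 10 CPM or more in every HADA library, of which 95.1% were protein-coding. They were 29.3% of the 30005 genes at 1 CPM or less in every control library, of which 11.4% were protein-coding, and 18.0% of all genes in the table. Of those 62 pseudogenes, 60 were above 1 CPM in some control library, and the median of their highest control level was 16.9 CPM. The spans of the members, 10669, 1878 and 288 bases, were below the median of 36815 bases among the 5792 genes. Beside the median of 3236 bases in the table, the Tinagl1 span was longer and the other spans were shorter. With 3 members chosen by their levels, these shares were not tested.

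The members lie on chromosomes 4, 12 and 11, each on a chromosome of its own, and 0 gene spans overlap them. The Tinagl1 span had a GC content of 54.6%, above that of 96.0% of the 5792 genes, whose median was 43.7%. It holds a run of 35 A or T, longer than in 83.2% of the 5792 genes. Gm11971 and Ncoa4-ps had a GC content of 45.5% and 48.7%, above that of 62.2% and 79.4% of the 5792 genes. Their runs were at most 3 and 6, longer than in 0% and 1.93% of these genes. All 3 members were thus above the median GC content, and the pseudogenes, unlike Tinagl1, had short runs of A or T. However, the longest run depends on the length of the span, and the median span of the 5792 genes was 36815 bases, introns included. Short runs in spans of 288 and 1878 bases therefore say nothing particular to the pseudogenes. Their GC content is likewise that of copied exons set against spans with introns.

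The nearest protein-coding gene on either side of each member was compared with it, and other genes within 100 kb are given after seeing their values. Hcrtr1, an orexin receptor gene 25.1 kb from Tinagl1, had 12, 12, 8 and 8 counts in HADA and 0, 12, 17 and 3 in control. Ldc1, 34.0 kb on its other side, was at 0.451 to 1.74 CPM in HADA and 0 to 4.91 CPM in control. Hcrtr1 and Ldc1 were thus below 5 CPM in every library. Within 100 kb there was 1 more gene, Pef1, at 70.4, 24.4, 61.3 and 0.489 CPM in HADA and at 86.0, 8.16, 3.54 and 0.880 CPM in control, so that its groups overlapped.

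The protein-coding genes nearest to Gm11971 were H2az2, a histone variant gene 8.71 kb away, and Purb, a gene for a nucleic acid binding protein 14.2 kb away. H2az2 was at 111, 61.8, 249.6 and 224 CPM in HADA and at 94.8, 5.95, 7.17 and 4.26 CPM in control, where replicate 1 lay among the HADA libraries and the other 3 lay below them. Purb was at 81.4 to 151 CPM in HADA and 4.50 to 222 CPM in control. The HADA library with the lowest H2az2 level, replicate 2, was not that with the lowest Gm11971 level, replicate 4. Nearer than these lie the processed pseudogenes Gm11970, 6613 bases away and at 0 to 0.0436 CPM in HADA against 0 to 0.208 CPM in control, and Gm11972, 2078 bases away.

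Gm11972 was at 1.03, 0.567, 0.357 and 0.489 CPM in HADA and at 0, 0.208, 0.177 and 0 CPM in control, far below the HADA levels of Gm11971. Its listed values were apart. However, the 0 in control replicate 1 allows up to 2.03 CPM at a floor of 3 counts, above every HADA library, so that this library cannot be placed below them. Ppia, on the other side of Gm11971 and within 100 kb, also had its groups apart, at 1154, 969, 954 and 1096.5 CPM in HADA and 410.2, 14.2, 2.88 and 126 CPM in control. Of the 13 genes within 100 kb of Gm11971, Gm11972 and Ppia were those whose listed values did not overlap between the groups. For Gm11972 this holds only with the 0 of control replicate 1 taken at face value. HADA lay above control by listed values for 2.04% of all 56980 genes in the table and for 2.78% of the 41823 genes with a count in some library, and nothing particular to the place is read from 2 genes. Without control replicate 1, H2az2, Zmiz2 (12.6 to 40.9 CPM in HADA, 0.463 to 3.25 CPM in control) and the small RNA gene Gm24000 also had their groups apart. The shares over all genes are not given without that library, so that nothing is read from these genes either. The 5 genes within 100 kb on the side of Ppia summed to 1071 to 1350.4 CPM in HADA and 10.9 to 518 CPM in control, and the 8 on the other side to 164 to 255 and 17.7 to 501 CPM.

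Ncoa4-ps lies between Itgb8, an integrin gene 22.2 kb away, and Macc1, 51.4 kb away. Itgb8 was at 8.55 to 73.0 CPM in HADA and 12.5 to 58.1 CPM in control. Macc1 was at 5.79 to 14.2 CPM in HADA and 7.45 to 121 CPM in control. In both cases the groups overlapped, and without control replicate 1 those of Macc1 were apart, with 21.1 to 121 CPM in control.

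**Figure D5:**
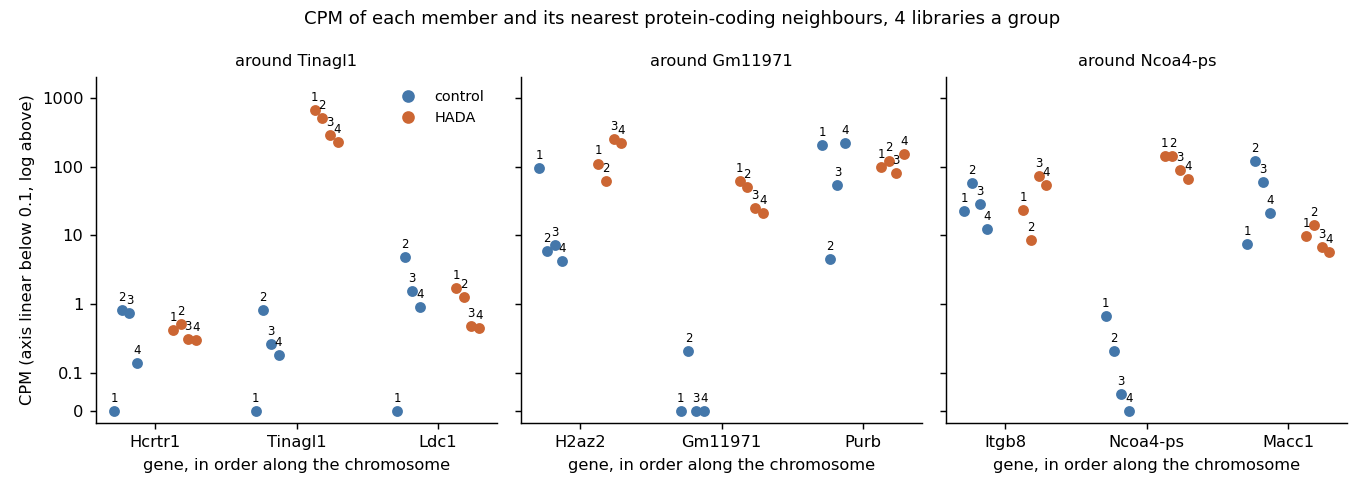
CPM of each member, in the middle of its panel, and of the nearest protein-coding gene on either side, with 4 control libraries in blue and 4 HADA libraries in orange, on an axis that is linear below 0.1 and logarithmic above. Numbers are replicates, the groups are apart for each member, and they overlap for each of the 6 neighbours, for H2az2 and Macc1 through control replicate 1.

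Of the 6 neighbours, 5 entered the fit across all genes and 0 were called by edgeR's quasi-likelihood test (adjusted p below 0.05, more than a 2-fold change), where 1.37% of 16446 protein-coding genes were called higher. At an unadjusted p below 0.05 there was 1, H2az2, with a log2 fold change of 3.20 (SE 1.22, adjusted p = 0.138, edgeR). DESeq2 called H2az2 (adjusted p = 0.0246), and over its alternatives the adjusted p ran from 0.00872 to 0.302. Without control replicate 1, edgeR called H2az2 higher (log2 fold change 5.77, adjusted p = 0.00872) and Macc1 lower (-1.82, adjusted p = 0.0277), where 15.5% of 24048 genes were called higher and 19.7% lower. All 3 members passed the filter on low counts, through their HADA libraries, and all 3 were called higher, where 1.65% of 21991 genes tested were called higher and 0.477% lower. Since the rule used the same contrast, nothing is read from this count. Among 584 processed pseudogenes tested, the 2 members included, 8.39% were called higher.

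Genes known to act with the members or with TMEM88, which is not a member, and antioxidant genes were followed as lists. They are given by their counts and their median log2 fold change, with 0.01 as the median of all genes tested and 0.30 as that of the protein-coding genes tested. Of 13 tested genes of the basement membrane and matricellular list, which holds relatives and partners of TINAGL1, edgeR called 2 higher and 0 lower, with a median of 1.01. Lamc1, a laminin chain, rose by a log2 fold change of 5.09 (SE 0.74, adjusted p = 0.00849, edgeR), a call lost without control replicate 3 (adjusted p = 0.0548, edgeR), and over its alternatives its log2 fold change was 4.87 to 5.56. Hspg2, the proteoglycan perlecan, had 3.76 (SE 0.80, adjusted p = 0.0347, edgeR), and lost its call under 9 of its alternatives, among them every fit without 1 of the libraries other than control replicate 1 (adjusted p from 0.0551 to 0.153, edgeR). Tinag, the closest relative of Tinagl1 by name, went the other way, with 8.82, 11.3, 5.11 and 3.76 CPM in HADA and 6.09, 78.3, 46.0 and 15.8 CPM in control. Its groups overlapped through control replicate 1, and its log2 fold change of -1.50 did not pass the threshold (SE 0.80, adjusted p = 0.233, edgeR). Without control replicate 1 edgeR called it lower (-1.68, adjusted p = 0.0342), and over all its alternatives the adjusted p ran from 0.0342 to 0.479.

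Of 10 tested genes of ferritin turnover and iron sensing, the setting in which NCOA4 acts, 1 was called higher and 0 lower by edgeR, and the median was 2.07. That gene was Aco1, with a log2 fold change of 7.73 (SE 0.76, adjusted p = 0.0022, edgeR), called under every alternative fit with values from 7.53 to 8.03. The ferritin chain genes Fth1 and Ftl1 had 2.35 (SE 1.18, adjusted p = 0.213, edgeR) and 2.77 (SE 1.13, adjusted p = 0.157, edgeR). Of 13 tested genes of SUMO conjugation 0 were called by edgeR, 2 were higher at an unadjusted p below 0.05 and 1 was called with DESeq2, and the median was 1.20. Both lists were chosen after the members were known.

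The counts over lists are read beside those over all genes tested. Besides the 1.65% called higher and 0.477% lower by edgeR, 12% of all genes were higher and 14.7% lower at an unadjusted p below 0.05 in the same test. DESeq2 called 4.84% of 41823 genes higher and 7.88% lower. When control replicate 1 was left out, edgeR called 15.5% of 24048 genes higher and 19.7% lower, with a median log2 fold change of -0.02.

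In that fit without control replicate 1 the iron list had 4 of 11 genes called higher by edgeR and a median of 2.93, the SUMO list 3 of 13 and 1.90, and the basement membrane list 5 of 13, with 2 lower, and 1.19. The medians fell to 1.17 for iron without HADA replicate 3, to 0.66 for SUMO without HADA replicate 4 and to 0.65 for the basement membrane without control replicate 2. In the basement membrane list 0 genes were called without control replicate 3 and 1 without each of the remaining libraries. DESeq2 on all libraries called 2 of 11 genes of the iron list and 4 of 14 of the basement membrane list higher. Without control replicate 1 and with DESeq2, the counts called higher lay above the shares over all genes in the same fits. The lists were not tested as sets, so that nothing particular to them is read from the counts.

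The Wnt and Dishevelled list, chosen around TMEM88, had 13 tested genes, 1 called higher by edgeR (Lrp5, log2 fold change 3.75, SE 0.88, adjusted p = 0.0497) and 0 lower. Its median was 0.18, below that of the protein-coding genes. The genes of Dishevelled itself, which TMEM88 binds, were not called. Dvl1 had 4.26 (SE 1.21, adjusted p = 0.0823, edgeR), Dvl2 5.22 (SE 1.34, adjusted p = 0.0638, edgeR) and Dvl3 -1.48 (SE 1.21, adjusted p = 0.414, edgeR). In the whole list 4 genes were higher and 1 lower at an unadjusted p below 0.05, and DESeq2 called 4 higher. The median was 0.11 to 0.72 with each library left out in turn, lowest without control replicate 3 and highest without control replicate 4. Lrp5 lost its call under 9 of its alternatives, 7 of them leaving out 1 library (adjusted p from 0.0709 to 0.172, edgeR). Of 10 tested antioxidant and NRF2 target genes, edgeR called 0, at an unadjusted p below 0.05 there were 2 higher and 1 lower, and the median was 1.43, while DESeq2 called 1 of 11 higher and 1 lower. The Wnt list had 4 of 13 genes called higher by edgeR without control replicate 1, with a median of 0.47, and the antioxidant list 2 of 10, with a median of 1.93. With DESeq2's size factors in edgeR the median of all genes was -0.19 in place of 0.01, and the medians of these lists were 0.85 for the basement membrane, 1.98 for iron, 1.12 for SUMO, 0.04 for Wnt and 1.29 for antioxidant genes.

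Other cell types were followed by their markers. The 9 epithelial and stromal markers, among them Epcam, Cdh1 and Col1a1, were all found above 0 in some library, and their summed level was 228, 208, 171 and 311 CPM in HADA and 287, 102, 63.1 and 343 CPM in control, with Pecam1 as the most abundant in every library. The groups overlapped, and 1 of 7 tested genes, Cdh1, was called higher by edgeR (log2 fold change 3.49, SE 0.80, adjusted p = 0.0448), a call lost under 9 of its alternatives, 7 of them leaving out 1 library (adjusted p from 0.0659 to 0.165, edgeR). The median of the list was -0.06, and 3 of the 7 had a log2 fold change above 0. Col1a2 (-1.78), Cdh5 (-1.02), Pdgfrb (-0.39) and Col1a1 (-0.06) went the other way without a call. The 6 platelet markers summed to 1555, 288, 807 and 853 CPM in HADA and to 512, 94.3, 71.8 and 253 CPM in control, with Ppbp as the most abundant in the HADA libraries and control replicate 1 and Pf4 in the other control libraries, and edgeR called 0 of 5 tested (3 at an unadjusted p below 0.05), while DESeq2 called 4 of 6 higher.

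The 7 erythroid markers, with Alas2 at 0, summed to 2519.5, 1041, 97.3 and 108 CPM in HADA against 30844, 2271, 5251 and 5833 CPM in control. Hba-a1 was the most abundant in the HADA libraries and control replicate 1, and Hbb-bs in the other control libraries. All 5 tested by edgeR were lower in HADA at an unadjusted p below 0.05, and 0 were called, while DESeq2 called 3 of 6 lower. The 9 CD8 and NK markers, with Nkg7 as the most abundant in HADA replicates 2, 3 and 4, Gzmb in HADA replicate 1 and control replicates 1 and 4, Cd8b1 in control replicate 2 and Ncr1 in control replicate 3, summed to 84.8, 147, 124 and 596 CPM in HADA and 109.7, 20.5, 9.21 and 160.7 CPM in control, with 1 of 7 tested, Cd8b1, called higher by edgeR (log2 fold change 4.97, SE 1.003, adjusted p = 0.0301), a call lost without any of control replicates 2, 3 and 4 or HADA replicates 1 and 3 (adjusted p from 0.0556 to 0.131, edgeR). In that list 3 genes were higher at an unadjusted p below 0.05, and DESeq2 called 4 of 9 higher. Of the 7 tested by edgeR, 5 had a log2 fold change above 0, while Prf1 (-3.02) and Gzmb (-0.64) went the other way without a call.

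Myeloid markers, with Lyz2 as the most abundant except in control replicate 2 (Adgre1), summed to 562 to 2626 CPM in HADA and 178 to 1946 CPM in control, and B cell markers, led by Ighm in every library and with Ms4a1 at 0, to 1806 to 3978 CPM and 448 to 5491 CPM. In neither list did edgeR call a gene (unadjusted p below 0.05 for 1 myeloid and 0 B cell genes, DESeq2 1 and 0). The T cell markers summed to 2194 to 5068 CPM in HADA and 219 to 2530 CPM in control, and the Treg markers to 851 to 1552 CPM and 410 to 791 CPM. The most abundant T cell marker was Cd3g in HADA replicates 1 to 3, Trac in HADA replicate 4, Cd3d in control replicate 2 and Lck in the other control libraries. The most abundant Treg marker was Ikzf2 in HADA replicate 1 and control replicates 2 to 4, and Ctla4 in the others. In these lists edgeR called 0 of 7 and 0 of 4 genes, with 2 in each at an unadjusted p below 0.05 and 2 in each with DESeq2. With control replicate 1 left out, edgeR called 2 genes higher in each of the Treg, T cell, CD8 and NK, myeloid and platelet lists, 1 higher and 1 lower among the epithelial and stromal markers, and 1 erythroid gene lower, with an erythroid median of -1.76 in place of -3.45. In that fit 15.5% of all genes were called higher and 19.7% lower. The part of the cell make-up in the levels of the members was not tested. The sums of the Treg markers had the groups apart. Without control replicate 1 those of the T cell markers (219 to 1739 CPM in control) and of the platelet markers (71.8 to 253 CPM in control) had them apart as well.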

How the data were processed

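The authors sorted Tregs, made cDNA with a low-input kit, used FastQC for read quality, Trimmomatic for trimming, STAR for alignment to the GRCm39 genome and featureCounts for gene counts, by the study's methods and the submitters' processing notes. The deposited values are raw counts for 56980 genes, without normalization, and the counted length equals the gene span for 100% of them, introns included. Settings for strand and for reads with several matches are not given in the sources used here. Symbols and biotypes came from GENCODE vM39, in which 98.7% of the identifiers were found. Coordinates are those of the deposited table.

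Libraries were grouped by their labels. CPM used the plain library total. Differences were tested across 21991 genes with edgeR 4.0.16 (TMM, filterByExpr, quasi-likelihood test, no covariate) in R 4.3.3, and a call needed an adjusted p below 0.05 with more than a 2-fold change. The fit was tested on simulated data. DESeq2 1.42.0 was an alternative, with the others given in the closing section. Sequences were compared with BLAST 2.17.0 and by exact windows of 50, 100 and 150 bases, with pysam 0.24.0 and Python 3.11.15. Intervals are exact (Clopper-Pearson) at 95%, the floor is 3 counts, and both cover counting error only.

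The members and lists were chosen with earlier results of these data known. Genes named are the members, those just inside and outside each threshold, their protein-coding neighbours, parents and relatives, and the genes of the lists: markers of Treg, T, CD8 and NK, B, myeloid, platelet, erythroid, epithelial and stromal cells, and the Wnt and Dishevelled, basement membrane and matricellular, antioxidant and NRF2, iron and SUMO lists. The measure of likeness, the last 2 lists, the genes within 100 kb and the sequence comparison of copies and parents were chosen after seeing the data.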

Additional observations from a re-analysis of the deposited data

Results flagged for a closer look

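In 7 of 68 groups of 4 libraries examined, 1 library lay far from the other 3. For normally distributed values chance flags about 1 in 20 groups, or 3.4 here, and the measures are not independent. This rate does not hold for levels near 0, since a single value above 0 among zeros is always flagged. Gm11971 was at 0.208 CPM in control replicate 2 and at 0 in the other control libraries, on 3 counts, and for the same reason its counts per 100 counts of Sumo2 were 2.22 there and 0 elsewhere. Mesp1 was at 0.277 CPM in control replicate 2, on 4 counts, and at 0 in the other control libraries. Aco1 was at 23.9 CPM in control replicate 2, against 8.80 to 10.2 CPM in the others.

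H2az2, the neighbour of Gm11971, was at 94.8 CPM in control replicate 1 and at 4.26 to 7.17 CPM in the other control libraries. In the same library the erythroid markers summed to 30844 CPM, against 2271 to 5833 CPM. The CD8 and NK markers summed to 596 CPM in HADA replicate 4, against 84.8 to 147 CPM in the other HADA libraries. The causes were not tested.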

How the results depend on the processing

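The number of genes that passed the rule was 14 with CPM from TMM-normalized library sizes, 9 at 5 CPM or more in HADA, 1 at 0.5 CPM or less in control (Gm11971) and 9 at 2 CPM or less in control. With each library left out in turn it was 3 to 78, with 78 without control replicate 1 and 16 without control replicate 2. It was 3 or 4 under the other settings. With every library thinned to the smallest total in 1 random draw it was 4, of which 2 were members. Tinagl1 was not among them in that draw, and no other draw was made. The 3 members were in every other set except that at 0.5 CPM. The mean HADA level of Tinagl1 was 507 CPM on the TMM scale and 344 to 487 CPM with 1 HADA library left out, within the spread of the libraries, and the other members moved by less than their spread too.

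The members were called higher in all fits run, which their choice on the same contrast led to and from which nothing is read. The fit without a fold threshold gave the same calls as that with it for all genes. The number of neighbours called higher was 1 with DESeq2, 0 to 1 with a library left out and 0 otherwise. Across all genes 363 were called higher and 105 lower. DESeq2 called 2026 and 3296. With a library left out the counts were 28 to 3716 higher and 1 to 4732 lower, the highest without control replicate 1 and the lowest without control replicate 3. Without a filter 54 were lower. With DESeq2, and with edgeR without control replicate 1, more genes were lower than higher, and in the other fits more were higher. The cause of these shifts was not tested.

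With the replicate number as a block 158 genes were higher and 11 lower. The numbers pair no samples by the labels, and libraries of the same number had correlations of their deviations of -0.207, 0.252, -0.0805 and -0.00316, so that the block says nothing of the strength of the effects. Under the block, Hspg2, Cd8b1, Cdh1 and Lrp5 lost their calls and Ncoa4, Aco1 and Lamc1 did not.

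Of 200 further values, for single genes and members under alternatives, 152 kept their side of the threshold or stayed within the spread. A call was lost by 42 and gained by 6, and 0 reversed their sign with a call in either fit. A change of sign without a call counted as kept. Without control replicate 2, Ldc1 went from -0.206 to 0.223 and Purb from 0.205 to -0.204. The 152 include fits without a fold threshold, which gave the same calls. They also include mean HADA levels with a control library left out, which cannot change. Control replicate 1, with 1477431 counts, limits what near silent can mean, since there 1 CPM allows no more than 1 count.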

Other observations

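The rule with the groups exchanged found 0 genes, at the same thresholds. The genes at 5 CPM or more in every HADA library and at 1 CPM or less in every control library were 9, and besides the members these were Mesp1, Gm20873, Gm38973, Gm45660, Scarna2 and Uba1y-ps1. Gm20873 and Uba1y-ps1 are named here after their values were seen. Gm20873, on chromosome Y, had 602, 798, 246 and 185 counts in the HADA libraries of these male mice and 0, 10, 5 and 6 in the control libraries, on a span of 2451 bases. Like the members, it was higher in HADA replicates 1 and 2 than in replicates 3 and 4.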
